A study of Mus musculus with 6 samples.

Results

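The genes of the proteasome were examined in liver RNA-seq of mice fed a high-fat diet (HFD). Every protein-coding gene whose symbol runs from Psma to Psmg followed by a number was taken, except Psmb8 and Psmb9, which left 46 of the 45777 genes listed. LT mice were male littermates on the C57BL/6 strain with both Fpn alleles floxed and without Cre, and Fpn-LKO mice were males of the same strain and floxed genotype that also carried Alb-Cre, so that all 6 mice shared the floxed alleles, the diet and the batch given in the labels. Alb-Cre acts in hepatocytes, and the other cells of the liver keep the gene that encodes ferroportin, the iron exporter. Each group had 3 mice with 1 library each, and the age at sampling is not given in the labels. The comparison asks whether loss of ferroportin in hepatocytes went with other levels of proteasome transcripts in the fatty liver.

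The proteasome degrades proteins that have been marked with ubiquitin. Its core particle, the 20S, is a barrel of stacked rings, in which the outer rings of alpha subunits gate the entry and the inner rings of beta subunits carry the proteolytic sites. The regulatory particle, the 19S, caps the barrel: its base holds a ring of ATPases that unfold the substrate, and its lid removes the ubiquitin. In liver, as elsewhere, the subunits are made together, and the transcription factor NFE2L1 raises their genes through antioxidant response elements when proteasome activity is low.

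By role, the 46 genes were 8 alpha subunits (Psma1 to Psma8), 9 beta subunits (Psmb1 to Psmb7, Psmb10 and Psmb11), 6 ATPases of the base (Psmc1 to Psmc6), 3 other base subunits (Psmd1, Psmd2 and Psmd4), 8 lid subunits, 5 activators or inhibitors (Psme1 to Psme4 and Psmf1) and 7 assembly chaperones. The chaperones, Psmg1 to Psmg4 for the core and Psmd5, Psmd9 and Psmd10 for the base, fall under the rule by symbol but are not subunits of the finished particle. The genes lay on 16 chromosomes, with 8 on chromosome 11 and 6 each on chromosomes 2 and 14. Psme1 (chr14:55578494-55581527) and Psme2 (chr14:55587440-55591101), which encode partners in a single activator ring, lay close together in the GRCm38.p6 annotation.

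The core of the antioxidant response element was searched in the promoters because it is the letter pattern through which NFE2L1 is known to reach these genes. RefSeq promoters of GRCm38.p6, 250 bases before to 50 after the start site, were available for 38 of the 46 genes. TGACNNNGC, read on both strands, was found in 6 of the 38 (15.8%), against 14.0% of all 27025 genes with such a promoter. Of these 6 genes, the part of the window upstream of the annotated gene is shown for 4 from different parts of the proteasome, a proteolytic beta subunit (Psmb5), an ATPase (Psmc6), a lid subunit (Psmd12) and a base chaperone (Psmd9), with the match in capitals. Psmb5 is on the minus strand and the others on the plus strand, and all are written 5′ to 3′ along the gene's strand. In Psmc6 and Psmd12 the capitals read as the reverse complement.
Psmb5, chr14:54618009-54618067, minus strand: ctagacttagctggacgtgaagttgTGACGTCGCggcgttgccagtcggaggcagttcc
Psmc6, chr14:45329574-45329630, plus strand: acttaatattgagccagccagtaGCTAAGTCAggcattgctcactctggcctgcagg
Psmd12, chr11:107479278-107479314, plus strand: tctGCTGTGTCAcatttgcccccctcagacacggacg
Psmd9, chr5:123228134-123228189, plus strand: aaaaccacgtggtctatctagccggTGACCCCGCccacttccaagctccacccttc
The match began 47 bases before the start site in Psmb5 and 31 in Psmd9, but 227 and 247 bases before it in Psmc6 and Psmd12. The other matches were in Psmb6, where a longer annotated transcript covers the match, and in Psme4, where it overlapped the start site. The GC box GGGCGG was found on either strand in 57.9% of the 38 genes and in 38.2% of all genes, and CCAAT in 34.2% and 41.1%. These are matches of letters, and binding was not measured here.

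The libraries held between 43086184 and 47778683 counts on genes, of which 0.249% to 0.330% fell on the 46 genes. Slc40a1, the gene deleted in hepatocytes, showed values of 154, 180 and 126 in the LT replicates against 143, 143 and 176 CPM (counts scaled to a common library size by the TMM method) in those labelled Fpn-LKO, so that its transcript did not set the groups apart and every direction below rests on the labels. Of the other iron genes, only Ftl1 and Tfrc are given here, picked after their values were seen. Ftl1, the ferritin light chain, averaged 1932 ± 191 CPM in LT and 2967 ± 282 CPM in Fpn-LKO (SD, n = 3 each). Tfrc, the transferrin receptor, averaged 38.6 ± 12.6 and 16.4 ± 3.0 CPM. The groups overlapped for neither gene, but 5.25% of all genes tested were higher and 5.34% lower without overlap. Neither passed the adjusted threshold (adjusted p = 0.926 and 0.570, quasi-likelihood test of edgeR). All 6 hepatocyte markers were abundant in every library (summed 63356 to 78176 CPM in LT and 66336 to 73954 CPM in Fpn-LKO). Summed markers of Kupffer cells lay between 178 and 237 CPM in LT and between 149 and 330 CPM in Fpn-LKO, the highest being Fpn-LKO replicate 3, which was also highest for the lymphocyte markers (37.3 CPM, against 12.2 to 26.5 CPM in the other libraries). The cholangiocyte list stood at 84.4 CPM in LT replicate 3, of which 83.1 CPM were Spp1, and at 12.8 to 29.9 CPM in the others. The erythroid list ranged from 351 to 941 CPM in LT and from 474 to 1243 CPM in Fpn-LKO. The endothelial and stellate list summed to 572 to 622 CPM. Of its 8 genes, 5 had a positive and 3 a negative log2 fold change, from -0.30 (Kdr) to 1.30 (Lyve1), with 0 past the adjusted threshold. Of the pancreatic markers, 4 of 5 had no read in any library, and Cela1 had 10.4 to 27.0 CPM, highest in LT replicate 3. Fewer cells of a type and less RNA per cell cannot be told apart in these bulk samples.

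Of the 46 genes, 45 passed the filter on low counts (at most 1 library with 0 reads). The exception was Psmb11, the beta subunit of cortical thymic epithelium, with a single read in Fpn-LKO replicate 2 and none in the other libraries, where 3 reads would correspond to 0.0603 to 0.0725 CPM. Levels of different genes were compared per length, as the deposited TPM (transcript abundance scaled for length to a fixed total). The highest level was that of Psmb4, a structural beta subunit, with 210, 160 and 137 TPM in LT against 149, 192 and 200 TPM in Fpn-LKO, followed by the means of Psmb1 (165 TPM), Psmb7 (162 TPM) and Psma7 (131 TPM). The TPM of the genotypes overlapped for these genes.

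**Figure D1:**
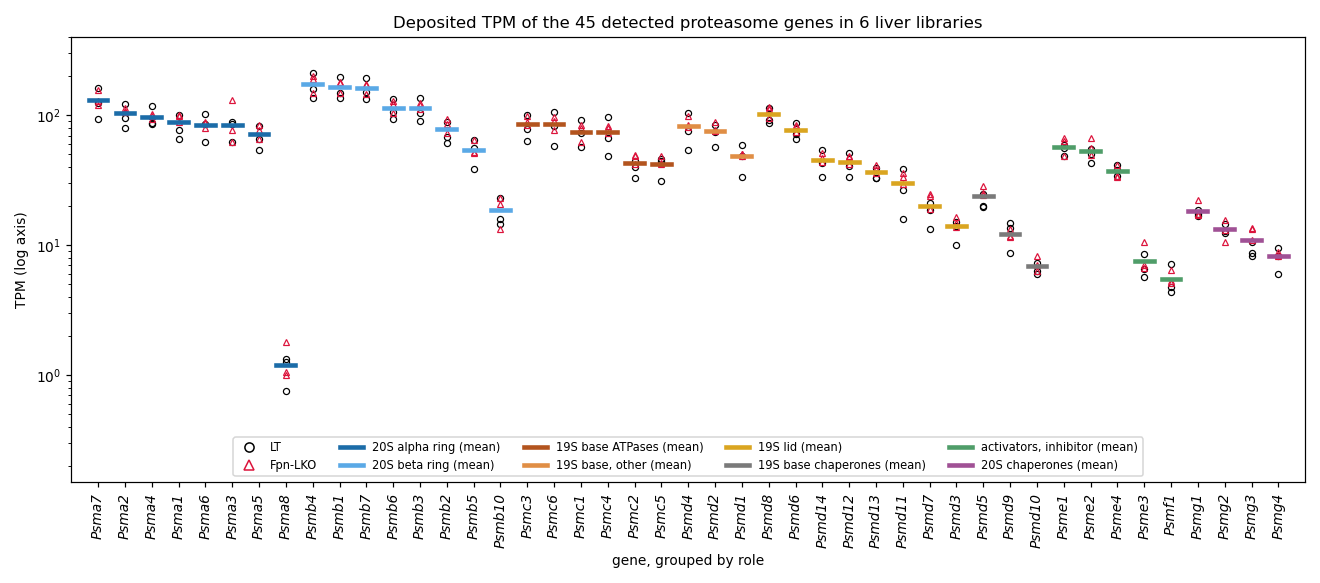
TPM on a log axis of the 45 proteasome genes with reads, grouped by role and ordered by mean, with circles for the 3 LT and triangles for the 3 Fpn-LKO libraries and a bar at the mean of the 6. Subunits of the core and regulatory particles lie mostly between 20 and 200 TPM, whereas Psma8 lies near 1 TPM and the chaperones between 6.88 and 23.8 TPM on average.

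Within the alpha ring, 7 genes had means of 71.8 to 131 TPM, the highest being Psma7 with 111, 95.5 and 79.0 in LT against 92.2, 82.9 and 115 CPM in Fpn-LKO. Psma8, a paralogue of Psma7 known from the testis, had a mean of 1.20 TPM and only 45 to 124 reads per library. Its CPM were 1.77, 1.04 and 1.91 in LT against 2.60, 1.24 and 1.40 in Fpn-LKO, and the SE of its log2 fold change, 0.40, was the largest of the 45 genes tested. The TPM of Psma3 ranged from 62.1 to 131, with the highest value in Fpn-LKO replicate 2, whereas its CPM ranged from 110 to 144 with the highest in LT replicate 1. The table lists 6 transcripts for Psma3 and 1 to 3 for the other alpha subunits, and TPM depends on how reads are shared among transcripts.

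The proteolytic sites of the constitutive core are carried by Psmb6 (caspase-like), Psmb7 (trypsin-like) and Psmb5 (chymotrypsin-like), with means of 115, 162 and 54.5 TPM. Psmb6 had 98.1, 88.5 and 84.5 CPM in LT against 87.7, 84.4 and 100.2 CPM in Fpn-LKO. Psmb7 had 132, 115 and 111 CPM in LT against 114, 112 and 123 CPM in Fpn-LKO. For both genes LT replicate 1 or Fpn-LKO replicate 3 was the highest library, and the groups overlapped.

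Psmb5 had 40.1, 38.8 and 29.2 CPM in LT against 45.1, 30.5 and 33.7 CPM in Fpn-LKO (log2 fold change of Fpn-LKO over LT 0.015, SE 0.19). Its pseudogene Gm3375 is 98.9% identical to it over 796 bases, so the counting could divide reads between them. Gm3375 had 141, 90 and 309 reads in LT against 144, 395 and 413 in Fpn-LKO, that is 5.08% to 6.59% of the reads of both genes in LT replicates 1 and 2 and Fpn-LKO replicate 1, but 20.3% to 21.7% in LT replicate 3 and Fpn-LKO replicates 2 and 3. The 3 libraries with the larger share were those with the lowest Psmb5. With the reads of both genes added together, the values were 43.0, 40.9 and 36.7 CPM in LT against 48.1, 39.0 and 42.6 CPM in Fpn-LKO, and the coefficient of variation over the 6 libraries was 9.36% in place of 16.9%. The log2 fold change of the sum was 0.11 (SE 0.12, adjusted p = 0.992 by the quasi-likelihood test of edgeR), so Psmb5 by itself is uncertain.

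Psmb10 takes the place of Psmb7 in the immunoproteasome, the form that interferon-gamma induces and that shapes peptides for antigen presentation. It had 14.4, 14.8 and 25.5 CPM in LT against 13.8, 19.7 and 20.02 CPM in Fpn-LKO, with the highest value in LT replicate 3, in which most other subunits were lowest. The ratio of Psmb10 to Psmb7 in TPM was 0.0821, 0.0972 and 0.173 in LT against 0.0913, 0.133 and 0.122 in Fpn-LKO (0.118 ± 0.0489 and 0.116 ± 0.0216, SD, n = 3 each), with overlapping groups (exact two-sided permutation test, p = 1, with 0.1 the smallest p that 3 against 3 libraries allow). The other immunoproteasome subunits, which are not among the 46 genes, had 12.5, 24.5 and 30.0 CPM in LT against 21.2, 23.2 and 29.6 CPM in Fpn-LKO for Psmb8, and 6.73, 9.01 and 15.3 CPM in LT against 10.1, 9.36 and 8.84 CPM in Fpn-LKO for Psmb9. All 3 immunoproteasome genes were thus highest in LT replicate 3.

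Psme1 and Psme2 encode the activator PA28, which is also induced by interferon-gamma. Psme1 had 41.3, 38.2 and 48.0 CPM in LT against 38.3, 43.5 and 47.1 CPM in Fpn-LKO. Psme2 had 32.0, 30.9 and 42.8 CPM in LT against 36.1, 40.3 and 38.3 CPM in Fpn-LKO. Both were again highest in LT replicate 3. The ratio of their summed TPM to that of the core particle was 0.0604, 0.0643 and 0.0912 in LT against 0.0686, 0.0789 and 0.0718 in Fpn-LKO (exact two-sided permutation test, p = 0.9). Psme2 shares 99.4% of 794 bases with Psme2b, whose reads amounted to 0.933% of those of Psme2.

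Psme4 (gene identifier 103554, chr11:30771775-30881150), which encodes the nuclear activator PA200, was the member whose CPM were lower in every library labelled Fpn-LKO. It had 190, 194 and 192 CPM in LT against 174, 178 and 166 CPM in Fpn-LKO, a log2 fold change of -0.15 (SE 0.10, unadjusted p = 0.173, adjusted p = 0.982 by the quasi-likelihood test of edgeR). The groups did not overlap, but the test across all genes did not separate them. In TPM, Psme4 had 41.7, 37.8 and 34.3 in LT against 33.6, 41.5 and 34.1 in Fpn-LKO, and there the groups overlapped. TPM has a fixed total. Of it, 5 RNAs without poly(A) tails took 16.1% and 20.2% in Fpn-LKO replicates 2 and 3 and 32.2% to 41.1% in the other libraries. Their part in the overlap was not tested. Its ratio to the core particle in TPM was 0.0258 ± 0.0026 in LT and 0.0227 ± 0.0021 in Fpn-LKO (SD, n = 3 each, exact two-sided permutation test, p = 0.3). Psme3, a nuclear activator ring, averaged 7.51 TPM and Psmf1, an inhibitor of the core, 5.52 TPM, the lowest of the group, with 17.9, 13.5 and 13.6 CPM in LT against 14.6, 15.3 and 14.3 CPM in Fpn-LKO.

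Among the ATPases, which encircle the entry of the core, the mean levels ran from 85.7 TPM for Psmc3 to 42.5 TPM for Psmc5. Psmc3 had 118, 103 and 89.9 CPM in LT against 110, 97.8 and 121 CPM in Fpn-LKO, and Psmc5 had 41.9, 45.4 and 34.5 CPM in LT against 43.7, 41.2 and 41.2 CPM in Fpn-LKO. All 6 ATPases were lowest in LT replicate 3. Psmc2 (gene identifier 19181, chr5:21785275-21803787) had 46.5, 46.8 and 41.9 CPM in LT against 50.6, 47.7 and 54.5 CPM in Fpn-LKO, groups that did not overlap (log2 fold change 0.18, SE 0.11, unadjusted p = 0.133, adjusted p = 0.982 by the quasi-likelihood test of edgeR). The gap between the highest LT and the lowest Fpn-LKO library was smaller than the spread within either group.

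The other base subunits were Psmd4, a ubiquitin receptor, with a mean of 83.3 TPM, and the scaffolds Psmd2 (76.3 TPM) and Psmd1 (48.4 TPM). Psmd4 had 98.3, 81.5 and 62.1 CPM in LT against 90.0, 72.6 and 101 CPM in Fpn-LKO, and Psmd1 had 137, 126 and 94.6 CPM in LT against 128, 109 and 124 CPM in Fpn-LKO. LT replicate 3 was the lowest library for all 3 genes.

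In the lid, the levels ran from 103 TPM for Psmd8 to 14.1 TPM for Psmd3. Psmd8 had 122, 105 and 121 CPM in LT against 118, 117 and 129 CPM in Fpn-LKO, and Psmd3 had 21.6, 26.0 and 18.8 CPM in LT against 25.7, 23.8 and 22.4 CPM in Fpn-LKO. Psmd14, the deubiquitinase of the lid, averaged 45.5 TPM. Its partner Psmd7 (gene identifier 17463, chr8:107580380-107588482) had 24.1, 24.0 and 18.7 CPM in LT against 24.5, 26.4 and 29.0 CPM in Fpn-LKO. These groups did not overlap (log2 fold change 0.26, SE 0.14, unadjusted p = 0.102, adjusted p = 0.982 by the quasi-likelihood test of edgeR), although Fpn-LKO replicate 1 was within 0.5 CPM of LT replicates 1 and 2. All 8 lid genes had a positive log2 fold change, from 0.016 to 0.26, and none passed the test.

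Of the assembly chaperones, Psmd5 (23.8 TPM) and Psmd10 (6.88 TPM) marked the ends for the base, and Psmg1 (18.3 TPM) and Psmg4 (8.23 TPM) those for the core. Psmg3 (gene identifier 66506, chr5:139823613-139826894), which helps to build the alpha ring, had 5.20, 7.32 and 6.28 CPM in LT against 7.63, 7.71 and 8.88 CPM in Fpn-LKO, and the groups did not overlap. Its log2 fold change of 0.37 (SE 0.18) was the largest of the 45 genes, with an unadjusted p of 0.0792 and an adjusted p of 0.982 by the quasi-likelihood test of edgeR. Psmg1 had 13.9, 14.1 and 15.7 CPM in LT against 14.4, 15.6 and 13.6 CPM in Fpn-LKO, Psmg4 had 3.13, 2.61 and 4.50 CPM in LT against 3.65, 3.13 and 3.34 CPM in Fpn-LKO, and both were highest in LT replicate 3. Psmd5 had 35.8, 31.9 and 34.0 CPM in LT against 40.8, 32.1 and 42.6 CPM in Fpn-LKO. Psmd10, by contrast, hardly varied, with 7.63, 7.27 and 7.64 CPM in LT against 7.44, 7.97 and 7.72 CPM in Fpn-LKO.

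Across the genotypes, none of the 45 genes passed the adjusted threshold of 0.05 in edgeR's quasi-likelihood test, where 0.0232% of the 17274 genes tested did (4 genes). The smallest adjusted p among them was 0.982, and unadjusted p-values ran from 0.0792 to 0.982, so that 0 genes lay under an unadjusted p of 0.05 in either direction (all genes, 2.62% higher and 2.19% lower in Fpn-LKO). DESeq2 and edgeR's exactTest, which called 0.417% and 0.365% of all genes past the adjusted threshold, also called 0 of the 45, with 0 at an unadjusted p under 0.05. The groups did not overlap in 3 genes that were higher (Psmc2, Psmd7 and Psmg3) and 1 that was lower (Psme4), that is 3 and 1 of 45, where 5.25% and 5.34% of all genes did so. These shares are near or under the background.

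The log2 fold changes ran from -0.15 to 0.37 with a median of 0.037, against -0.0040 for all genes tested. The median was 0.014 for the 16 core genes tested and 0.060 for the 17 genes of the regulatory particle. The log2 fold change was above 0 in 33 of the 45 genes (73.3%, against 49.4% of all genes), in 11 of 16 core genes and in 16 of 17 regulatory genes. This count rested on single libraries: it was 19 of 45 without LT replicate 3 and 23 of 45 without Fpn-LKO replicate 3, while 50.6% and 48.7% of all genes were then positive. Without LT replicate 3 the medians were -0.043 (core) and -0.0040 (regulatory), and without Fpn-LKO replicate 3 they were -0.062 and 0.016.

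The data also bound how large a difference could be. The 95% interval of the fold change stayed within 1.5-fold either way for 39 of the 45 genes (86.7%), against 50.1% of the 10992 genes tested in the same range of mean CPM. The median of the mean CPM was 57.8 for the 45 genes and 12.7 for the 10992, so the levels were not matched within that range. The interval stayed within 2-fold for 44 of the 45 genes, the exception being Psma8 (0.584-fold to 2.12-fold). For Psmb7 the interval was 0.813-fold to 1.17-fold, and for Psmd13, the narrowest, 0.891-fold to 1.21-fold.

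**Figure D2:**
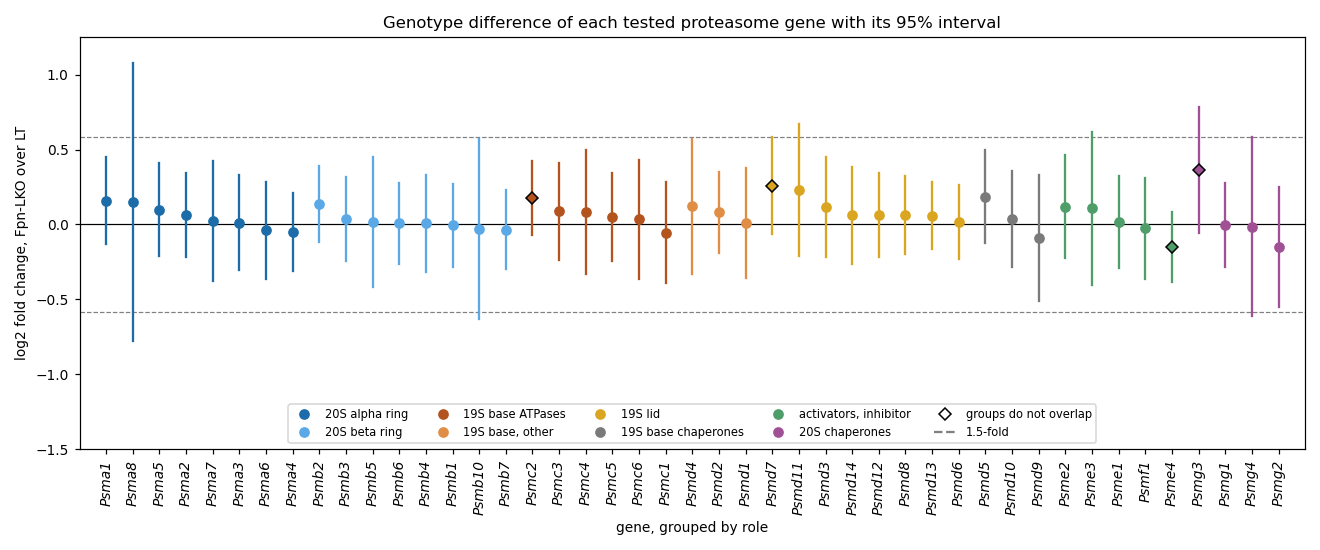
Log2 fold change of Fpn-LKO over LT for the 45 genes tested, grouped by role, with points at the estimate and lines for the 95% interval of edgeR's quasi-likelihood fit. Every interval crosses 0, the dashed lines mark 1.5-fold either way, and diamonds edged in black mark Psmc2, Psmd7, Psme4 and Psmg3, in which the CPM of the groups did not overlap.

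The 19S and 20S were also set against each other within each library. The ratio of the summed TPM of the 17 regulatory genes to that of the 17 core genes was 0.636, 0.642 and 0.601 in LT against 0.660, 0.629 and 0.650 in Fpn-LKO (0.626 ± 0.0223 and 0.646 ± 0.0156, SD, n = 3 each). The mean difference on the log2 scale was 0.045, the groups overlapped, and the exact two-sided permutation test gave p = 0.3. The ratio was lowest in LT replicate 3. With the median gene of each particle in place of the sum, the difference was -0.085 on the log2 scale, so even its sign depended on how the particle was summarised.

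**Figure D3:**
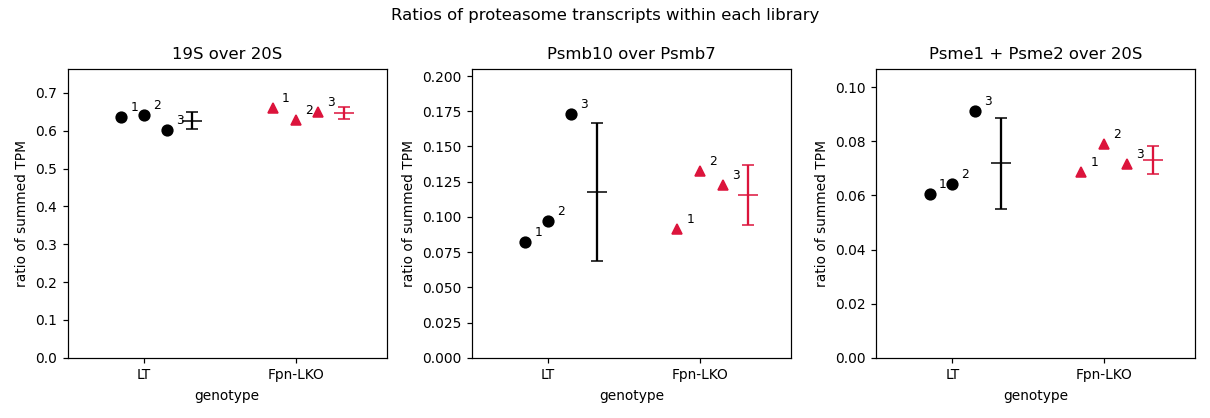
Ratios of TPM within each library for the 19S over the 20S, Psmb10 over Psmb7, and Psme1 plus Psme2 over the 20S, with numbered points for the replicates and a bar for mean ± SD of each genotype (n = 3). LT replicate 3 lies lowest in the first panel and highest in the other panels, and the genotypes overlap in all of them.

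The spread between mice, rather than between genotypes, showed an order that most subunits shared. LT replicate 3 was the lowest library for 26 of the 45 genes (57.8%, against 18.7% of all genes), made up of 11 of 16 core genes, 14 of 17 regulatory genes and 1 of the 7 chaperones. The highest library was LT replicate 1 or Fpn-LKO replicate 3 for 30 genes (66.7%, against 32.6% of all genes). These counts were made after the values were seen and carry no test, since genes of 1 library share its RNA and its scaling.

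For the 33 genes of the core and regulatory particles, the median deviation from the gene's mean over the 6 libraries was 0.15, -0.045 and -0.19 on the log2 scale in the LT libraries against 0.033, -0.071 and 0.15 in Fpn-LKO. For all 12577 genes with a mean of at least 1 CPM it lay between -0.0023 and 0.014. LT replicate 1 and Fpn-LKO replicate 3 were thus alike at the upper end, being the highest library for 11 and 16 of the 33 genes, and LT replicate 3 was at the lower end. Summed over both particles, the levels were 2770, 2454 and 2206 CPM in LT against 2533, 2388 and 2745 CPM in Fpn-LKO (2476 ± 283 and 2556 ± 180 CPM, SD, n = 3 each), and the groups overlapped.

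In LT replicate 3, 13 of the 45 genes lay above their mean, among them Psmb10, Psme1 and Psme2 and 3 of the 4 core chaperones. For Psmb10, Psme1 and Psme2 together, the median deviation was -0.19, -0.24 and 0.23 in LT against -0.15, 0.14 and 0.15 in Fpn-LKO. For Psmg1 to Psmg4 it was -0.13, -0.0015 and 0.23 in LT and 0.047, 0.078 and -0.0019 in Fpn-LKO, with Psmg3 at -0.17 in LT replicate 3 and the other 3 between 0.11 and 0.43. LT replicate 3 was also the library with the high Spp1, while its Ptprc, a marker of all leukocytes, was 14.2 CPM against 11.7 to 36.0 CPM in the others, and Fpn-LKO replicate 3, at the upper end for the subunits, was the library with the highest Kupffer and lymphocyte markers. The part of other cell types in this order was not tested. The median coefficient of variation of the 45 genes was 13.7% among LT and 8.12% among Fpn-LKO libraries. It was 18.3% and 18.7% for all genes, and 13.5% and 13.9% for the genes tested in the same range of mean CPM. Whether the spread of the genotypes differs was not tested.

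**Figure D4:**
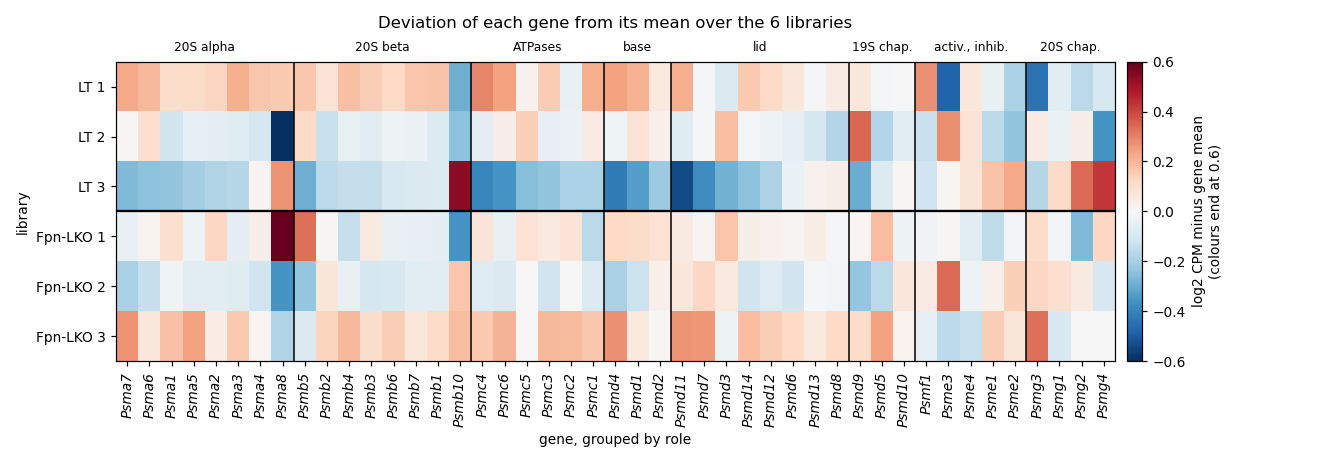
Log2 CPM of each of the 45 genes minus its mean over the 6 libraries, with libraries in rows (LT above and Fpn-LKO below the line) and genes in columns by role, red above and blue below the mean, colours ending at 0.6. Most subunits are blue in LT replicate 3 and red in LT replicate 1 and Fpn-LKO replicate 3, whereas Psmb10, Psme1, Psme2, Psmg2 and Psmg4 are red in LT replicate 3.

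The proteasome's surroundings were followed in 34 further genes, all of them tested, of which none passed the adjusted threshold. Of 12 genes that assemble with, trim or accompany the proteasome, Psmb8 and Psmb9 among them, 9 had a positive log2 fold change. Of 6 genes for ubiquitin and its activating enzymes 5 did, of 9 shuttle factors and Vcp cofactors 7 did, and of 7 genes of the NFE2L1 axis 5 did. In all, 26 of the 34 were positive (76.5%, against 49.4% of all genes), but 21 without LT replicate 3 and 17 without Fpn-LKO replicate 3. LT replicate 3 was the lowest library for 16 of the 34 (47.1%, against 18.7% of all genes).

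Nfe2l1, the factor that raises proteasome genes, had 70.1, 62.2 and 60.8 CPM in LT against 90.7, 82.2 and 58.6 CPM in Fpn-LKO (log2 fold change 0.26, SE 0.17, adjusted p = 0.982 by the same edgeR test). Ubb, a polyubiquitin gene, had 473, 452 and 432 in LT against 441, 466 and 501 CPM in Fpn-LKO, and the groups overlapped.

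Copies and other matching genes limit the precision of some members. Of the 46 genes, 16 had another gene that matched over 300 bases or more at 90% identity or above, 15 of them with such a gene listed in the table. The matching gene had at least 1% of the member's reads for 6 genes: Psma3 (Gm13835, 1.57%), Psma4 (Gm6542, 4.40%), Psma5 (Gm12989, 1.11%), Psmd11 (A730017L22Rik, 5.19%), Psmb5 (Gm3375, 14.9%) and Psmd13 (Sirt3). Sirt3 is a different gene and not a copy of Psmd13. A Sirt3 transcript with a retained intron shares 329 bases with Psmd13, and Sirt3 had more reads than Psmd13 itself. How the counting used strand is not given in the sources used here, so reads in the shared stretch of Psmd13 and Sirt3 cannot be told apart. Psmd13 had 43.9, 41.0 and 44.9 CPM in LT against 45.3, 43.6 and 46.0 CPM in Fpn-LKO, and unlike most lid genes it was not lowest in LT replicate 3.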

How the data were processed

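The authors sequenced liver RNA of 3 LT and 3 Fpn-LKO mice, and the deposited table holds read counts, FPKM and TPM per gene, without columns of comparisons. Per the submitters' processing notes, HISAT2 2.1.0, Bowtie2 2.3.4.1 and StringTie 2.1.3b were used with mm10. The labels name an mRNA kit and the methods an rRNA-depletion kit, and 5 RNAs without poly(A) tails took 3.29% to 10.2% of the counts and 16.1% to 41.1% of TPM. TPM and FPKM are scaled by length and library by the authors. Groups came from the labels.

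Deposited counts entered edgeR 4.0.16 (R 4.3.3), with the quasi-likelihood test without robust estimation, TMM scaling, genes with 0 reads in more than 1 library left out (17274 kept), Benjamini-Hochberg adjustment over all of them and a threshold of 0.05. The methods name exactTest, which was an alternative beside DESeq2 1.42.0 and limma 3.58.1. The libraries held 43086184 to 47778683 counts, and whether the mice differed by more than the error of counting was not tested for single genes. P-values set a difference against a spread between mice that is estimated with information shared across genes, not against the gene's own libraries alone. Psme4, whose LT libraries lay close together, thus had an SE of 0.10, and the smallest SE of all genes tested was 0.0902. The common biological coefficient of variation was 0.275, and SE was derived from the F statistic. The fits were tested on simulated data with the same dispersion for every gene and changes of at least 2-fold. Changes as small as those of the members were not covered by it. Members and lists were chosen with earlier results of these data known. Values per library are given for members whose groups do not overlap, for those with the highest or lowest TPM of their role, and for Psmb5, Psmb6, Psmb7, Psmb10, Psme1 and Psme2. Psma3, Psmd13, Psmb8, Psmb9, Gm3375, Ftl1, Tfrc, Kdr, Lyve1 and Cela1 were named after their values were seen. Copies were searched with BLAST 2.17.0, and protein sequences were not used here. Some genes of the pathway lists are not reported here. Intervals are at the 95% level.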

Additional observations from a re-analysis of the deposited data

How the results depend on the processing

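No member passed the adjusted threshold of 0.05 under any alternative run (RLE size factors, all genes with at least 1 read, filterByExpr, limma on TPM with a pseudocount of 1 or 0.1, DESeq2, exactTest, the replicate block and leaving out each library). On TPM, limma gave 1 member higher at an unadjusted p under 0.05 (Psmg3), 1 member that was higher without overlap (Psmg3, against 7.28% of all genes) and 0 that were lower (against 1.61% of all genes), with either pseudocount. It gave 43 of 45 members above 0, where 69.1% of the 11464 genes were positive. The median of these genes was 0.083 or 0.097, against -0.0040 for the 17274 genes of the main test. The 5 RNAs without poly(A) tails took 16.1% and 20.2% of TPM in Fpn-LKO replicates 2 and 3 and 32.2% to 41.1% in the other libraries. Their part in the higher medians on TPM was not tested, nor was that of the smaller gene set. With the median in place of the sum, the difference in the 19S to 20S ratio was -0.085, and FPKM gives the same ratio as TPM by construction. Leaving out 1 library at a time gave medians of -0.062 to 0.11 (core) and -0.0040 to 0.14 (regulatory), 0 to 1 members higher and 0 to 0 lower at an unadjusted p under 0.05 (Psmg3 without LT replicate 2, Psme2 without LT replicate 3, Psmd5 without Fpn-LKO replicate 2), 3 to 8 higher and 1 to 2 lower without overlap, a ratio difference of 0.016 to 0.064, and 19 to 37 members above 0, with 19 without LT replicate 3. The 8 higher without overlap arose without LT replicate 1, 6 without LT replicate 3 and 5 without Fpn-LKO replicate 2, against 10.3%, 11.3% and 9.94% of all genes, which with fewer libraries separate more often. Replicate numbers are carried by different mice and were not taken to pair the libraries. Same-numbered libraries deviated together with correlations of 0.249, 0.026 and 0.129, and differently numbered ones with -0.193 to 0.0841. These values do not settle whether the numbers pair the libraries. With the replicate block, 0 members were called, the medians were 0.014 (core) and 0.064 (regulatory), 34 members were above 0, and the ratio difference was 0.045 (exact sign-flip permutation test, p = 0.5). With 3 pairs, the sign-flip test cannot give a p under 0.05. Psma8, at 45 to 124 reads, and Psmb11 are limited by depth. The counts of members and pathway genes above 0 under each alternative and the sum of Psmb5 and Gm3375 were chosen after seeing the data.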
